A study of Caenorhabditis elegans with 3 samples.

Results

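The linker histone (H1) genes of Caenorhabditis elegans were followed in RNA of whole worms labelled L4/young adult, L4 being the last larval stage. The genes were a list of 7 members of the family: his-24, hil-2, hil-3, hil-4, hil-5, hil-6 and hil-7. The platform's probe-to-gene table gave 1 spot each to 6 of them and listed none for hil-2, so 6 of 7 members are described, among 15119 genes measured on all arrays. No spot that the table assigns to several genes involved any of them. Whether a spot also reads a related linker histone gene could not be checked. The family was picked out with its log2 ratios on these arrays already known, so the members' values are given as a description, without a test.

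The study used 3 two-channel microarrays, each holding RNA of 1 numbered preparation (prep 1, 2 or 3) of L4 and young adult hermaphrodites, labelled TP06, in channel 2 and a mixed wild-type reference RNA in channel 1. No strain or genotype is named for the staged worms, and neither the ages, the growth conditions nor the make-up of the reference are given in the sources used here. The value for each spot is a log2 ratio of the channels. No source gives its direction, so values over 0 are read here as probably more staged than reference RNA, and every "above" and "below" turns if the ratio runs the other way. Whether each prep was a culture of its own is not said, so p-values cover no more than how these 3 preps vary, possibly for technical reasons.

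Linker histones bind the nucleosome where the DNA enters and leaves it and help chromatin to fold. They share a central globular domain of the winged-helix type, flanked by tails that are rich in basic residues. Worms carry several linker histone genes. The best studied, his-24, is known for its part in keeping repeated transgenes silent in the germ line, and its product has been linked to the heterochromatin protein HPL-1 and the deacetylase SIR-2.1. The other members are named hil, for histone H1-like. In RNA of whole animals, fewer cells of a type and less RNA per cell cannot be told apart.

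The members did not move as a block: 3 lay far below the reference, 2 lay above it and 1 was near it. In order of their mean log2 ratio, with the SD over the 3 arrays (n = 3), they were hil-4 at 1.61 ± 0.42, hil-5 at 1.11 ± 0.78, hil-6 at 0.08 ± 0.25, hil-7 at -1.55 ± 0.51, his-24 at -2.14 ± 0.12 and hil-3 at -2.71 ± 0.68. As ratios, hil-4 stood 3.05-fold and hil-5 2.16-fold above the reference, while hil-7 stood 2.93-fold, his-24 4.42-fold and hil-3 6.56-fold below it. Taken by array, the median of the 6 members was -0.86, -0.62 and -0.71, beside 0.04, -0.09 and -0.06 over all genes.

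**Figure D1:**
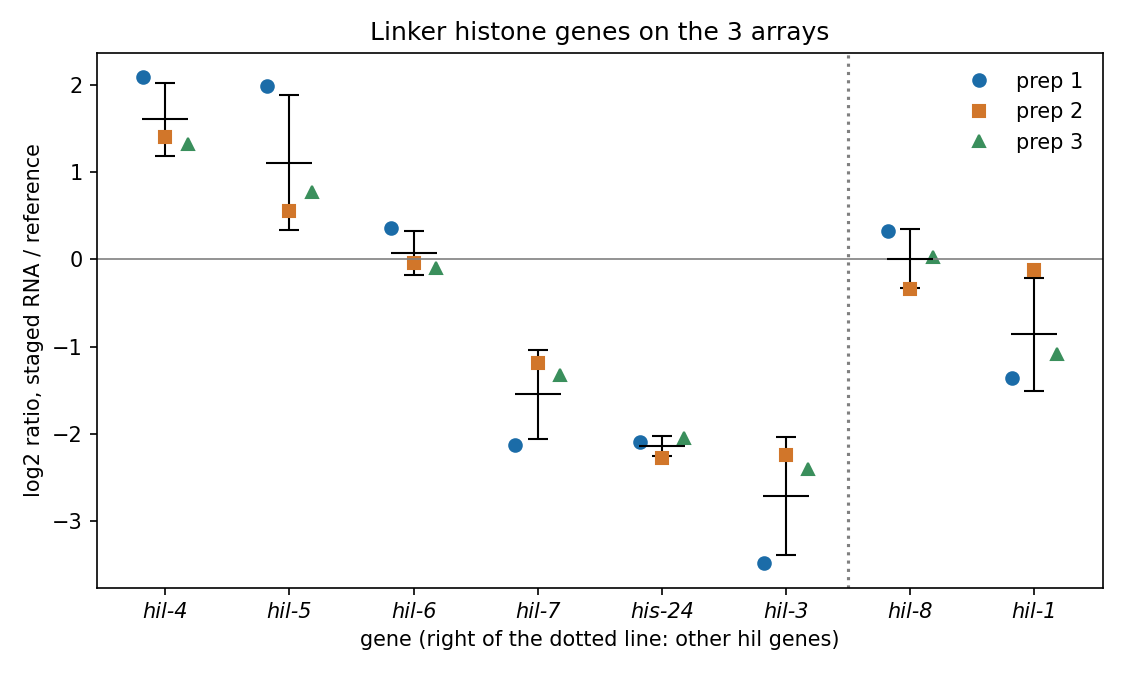
Log2 ratio of staged over reference RNA (vertical axis) for 6 linker histone genes, and for hil-8 and hil-1 right of the dotted line. Each point is 1 array, the horizontal bar is the mean and the whiskers are ± 1 SD (n = 3); hil-4 and hil-5 lie above 0 on all 3 arrays, and hil-7, his-24 and hil-3 below 0 on all 3.

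The gene his-24, also M163.3, lies on the X chromosome. Its log2 ratios were -2.095, -2.279 and -2.053 in preps 1, 2 and 3. All 3 arrays thus fell within 0.23 of each other. Only 6.63% of all genes had a smaller SD, against a median SD of 0.39 over all genes. The level in the staged RNA was between 4.15-fold and 4.85-fold below the reference on each array, and 107 of the 15119 genes had a lower mean. The small spread depended on the scale of the arrays. When the arrays were brought to a common scale the values were -1.87, -2.42 and -2.16 (SD 0.27), and after quantile normalization -1.70, -2.59 and -2.20 (SD 0.45), with the mean at -2.15 and -2.16.

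Spots were also grouped by number into 32 runs of equal length, supposed print blocks of the array. The block that holds his-24 had medians of -0.05, -0.27 and -0.44 on the 3 arrays. With each block centred on its median, his-24 stood at -2.04, -2.01 and -1.61, a mean of -1.89. It remained below the reference on every array.

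The lowest member, hil-3 (F22F1.1), is the other X-linked one. It stood at -3.49 in prep 1, -2.24 in prep 2 and -2.40 in prep 3, which is 11.2-fold, 4.74-fold and 5.29-fold below the reference. Prep 1 was the lowest array by a wide margin, and the others lay close together. Only 35 of all genes had a lower mean. The order of hil-3 and his-24 was not the same on every array. The difference his-24 minus hil-3 was 1.39, -0.03 and 0.35, so these neighbours in the order do not differ beyond their spread.

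On the X chromosome, whose 2274 measured genes had a median of -0.26, 11 genes had a lower mean than his-24 and 2 a lower mean than hil-3. The X-linked genes as a whole were below 0 on each array, with medians of -0.23, -0.18 and -0.41. Both X-linked members lay far below those medians on each array. The measured genes on either side of them did not share the low values. Beside his-24, gfi-3 stood at -0.34 ± 0.38 and ztf-14 at -0.56 ± 0.32. Beside hil-3, F22F1.2 stood at -0.19 ± 0.37 and F22F1.3 at -0.38 ± 0.17, and none of these 4 passed the test over all genes (limma, Benjamini-Hochberg adjusted).

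The remaining member below the reference was hil-7 (C01B10.5), on chromosome IV. It stood at -2.13, -1.19 and -1.32 in preps 1, 2 and 3, again lowest in prep 1. Its fold below the reference ran from 2.29 in prep 2 to 4.39 in prep 1. It differed from hil-3 by 1.36, 1.05 and 1.08, so hil-7 lay above hil-3 on every array by a similar step (mean 1.16 ± 0.17). With print blocks centred the step was less even, with hil-3 at -3.57, -2.08 and -2.20 and hil-7 at -2.19, -0.99 and -1.51. Against his-24, as deposited, hil-7 was level in prep 1, where the difference was -0.04, and higher in the others by 1.08 and 0.73. Its measured neighbours on the chromosome lay on the other side of 0, kola-3 at 1.69 ± 0.76, called higher by limma, and usp-4 at 0.23 ± 0.17.

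The highest member, hil-4 (C18G1.5), lies on chromosome V. Its log2 ratios were 2.09, 1.40 and 1.33 in preps 1, 2 and 3, so it stood 4.27-fold, 2.65-fold and 2.51-fold above the reference. Prep 1 was the highest array and the other preps were close to each other. Of all genes 3.49% had a higher mean. The gene next to it on one side, pgl-3, encodes a P granule protein of germ cells. It had values of 2.04, 1.09 and 0.67 and a mean of 1.27 ± 0.70, called higher by limma. The measured gene on the other side, gtnt-10, stood at -0.34 ± 0.19.

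Next came hil-5 (B0414.3), on chromosome I, with 2.00 in prep 1, 0.56 in prep 2 and 0.77 in prep 3. As deposited it was the member that varied most, with an SD larger than that of 89.6% of all genes. With the median of each array set to 0, hil-3 varied more (SD 0.74 against 0.71 for hil-5). So it did with print blocks centred (0.83 against 0.75). In prep 1 hil-5 was nearly level with hil-4, at a difference of 0.10, but lower by 0.84 in prep 2 and by 0.56 in prep 3. Their ranges over the arrays overlapped. Without prep 1 the mean of hil-5 was 0.67, against 1.11 with all preps. Its measured neighbours, lron-8 at 0.66 ± 0.90 and rnt-1 at -0.53 ± 0.44, did not pass.

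Nearest to the reference was hil-6 (F59A7.4), on chromosome V, at 0.37, -0.04 and -0.10 in preps 1, 2 and 3. Its sign was not the same on all arrays, and its mean corresponds to a 1.05-fold ratio. It shares chromosome V with hil-4, which was higher by 1.73, 1.44 and 1.43, a mean difference of 1.53 ± 0.17. Both spots lie in the same supposed print block, so this difference is not touched by centring the blocks. As deposited, the step between these 2 genes thus varied less than either gene. With the arrays on a common scale it was more even, with hil-4 at 1.87, 1.49 and 1.40 and hil-6 at 0.33, -0.04 and -0.11. After quantile normalization it was less even, with hil-4 at 2.20, 1.40 and 1.36 and hil-6 at 0.29, 0.01 and -0.07. Beside hil-6, srab-13 at -0.24 ± 0.03 and gtnt-27 at 0.02 ± 0.23 did not pass.

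Of the 15 pairs of measured members, 13 had the same order on all 3 arrays and 12 had ranges that did not overlap. The pairs that overlapped were the neighbours hil-4 and hil-5, hil-7 and his-24, and his-24 and hil-3. The widest difference, hil-4 minus hil-3, was 5.58, 3.65 and 3.73 by prep, with a mean of 4.32 ± 1.09. The difference hil-4 minus his-24 was 4.19, 3.68 and 3.38, a mean of 3.75 ± 0.41, or 13.5-fold. A shift of a whole array leaves such differences unchanged, but centring print blocks changes them where the genes lie in different blocks. With print blocks centred, the means of hil-4, his-24 and hil-3 were 1.45, -1.89 and -2.62, against 1.61, -2.14 and -2.71 as deposited. All these differences compare ratios to the reference and not the amounts of the transcripts.

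**Figure D2:**
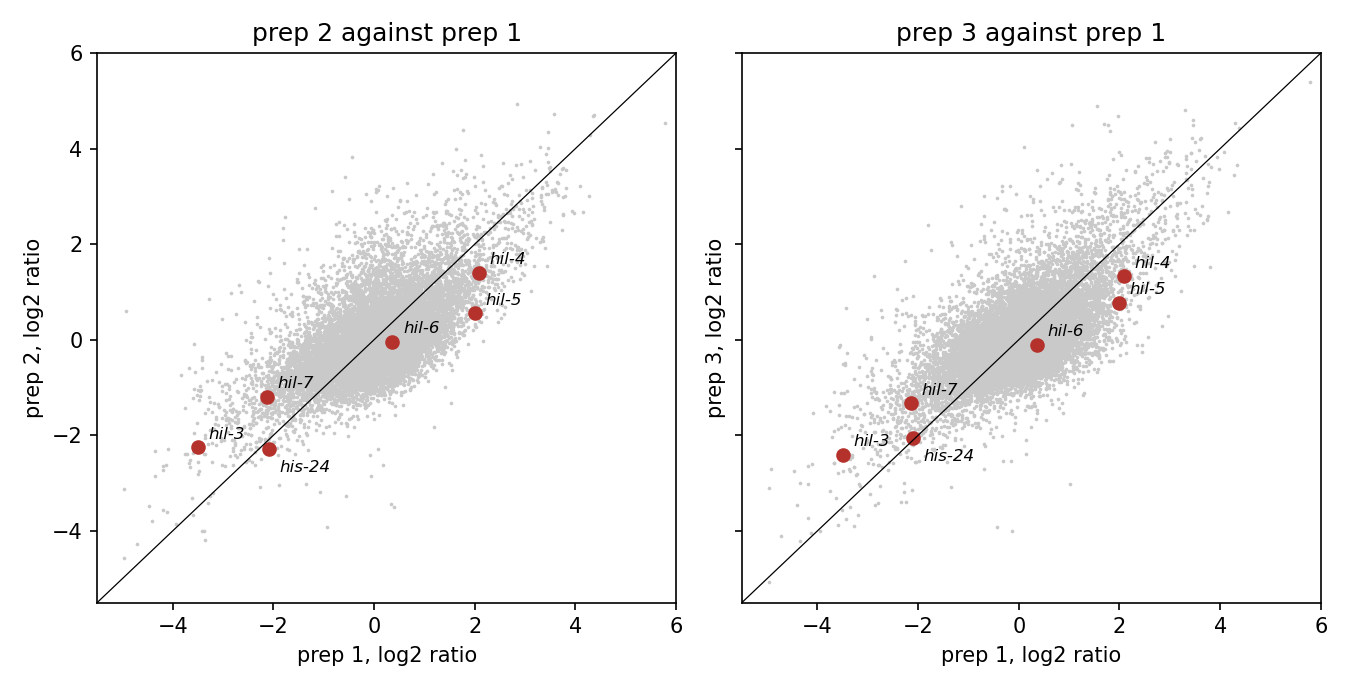
Log2 ratios in prep 2 (left) and prep 3 (right) against prep 1 for all 15119 genes (grey) and the 6 linker histone genes (red); the line marks equal values. In prep 1, hil-4, hil-5 and hil-6 lie further up and hil-3 and hil-7 further down than in the other preps, while his-24 lies close to the line.

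Prep 1 was the extreme array for 5 of the 6 members: the highest for hil-4, hil-5 and hil-6 and the lowest for hil-7 and hil-3. The family's span, from its highest to its lowest member, was 5.58, 3.68 and 3.73 for preps 1, 2 and 3. Over all spots, prep 1 also had the widest spread, with an SD of 0.94 against 0.82 and 0.84. With the arrays on a common scale, hil-3 was at -3.12, -2.38 and -2.53 and hil-7 at -1.91, -1.27 and -1.39. Prep 1 stayed lowest for both genes.

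Genes of oocytes, the germ line and DNA replication were not level across the preps either. For 13 oocyte genes the medians of the 3 arrays were 1.53, -0.05 and -0.13, and 1 of them passed the test, as higher. Without prep 1 the count was 0 and without prep 3 it was 5. For 18 germ line genes they were 1.41, 0.72 and 0.62, with 11 called higher and 0 lower, or 6 higher without prep 1. For 19 genes of DNA replication they were 0.99, 0.08 and -0.003, with 3 called higher and 0 lower. That count was 0 without prep 1, without prep 2 and with the median of each array set to 0, and 1 with print blocks centred. Over all genes 11.3% were called higher. The part of these shifts in the linker histone values was not tested.

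The medians of the sperm and adult cuticle markers lay above the reference in every prep, though not every gene did. The median of 35 sperm genes, mostly major sperm protein genes with near-identical members, was 2.66, 2.38 and 2.92. Of these genes, 33 were called higher and 0 lower, where 11.3% and 9.37% of all genes were. Of 6 collagen genes of the adult cuticle, with medians of 2.16, 1.88 and 2.89, 5 were called higher, beside the same 11.3% of all genes. The remaining one, rol-6, lay below the reference on every array, at -3.56, -0.68 and -0.11, and did not pass with all preps. Without prep 2 or without prep 3, 1 of these collagen genes was called lower. None of 3 yolk protein genes passed, with medians of 0.87, 0.15 and -0.54, but 1 was called higher without prep 3. With all preps, 0 of them had an unadjusted p under 0.05, where 33.7% of all genes did. Of 3 male genes 0 passed, 0 of them also at an unadjusted p under 0.05, and the medians were -0.12, -0.15 and -0.51.

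The fit across all genes (limma, adjusted p under 0.05) called 2 of the 6 measured members higher, hil-4 and hil-5, where it called 11.3% of all genes higher. It called 3 members lower, hil-3, his-24 and hil-7, where it called 9.37% of all genes lower. In either direction 20.7% of genes were called. The members were chosen from this same comparison, so the counts are given only as a description. Without prep 1 hil-5 was no longer called, and the share of genes called in either direction went to 11.6%.

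Beside the members, 2 further genes have a hil symbol. One is hil-1, whose product has been reported on cytoplasmic filaments. It stood at -1.37, -0.13 and -1.09 in preps 1, 2 and 3, a mean of -0.86 ± 0.65, and was not called. Prep 2 lay apart from the other arrays, and without it hil-1 was called lower at -1.23. With all 3 arrays kept, it was also called lower when limma was run with a trended, robust variance estimate. The other, hil-8, was at 0.33, -0.34 and 0.03, a mean of 0.01 ± 0.34, and was not called.

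The core histones, around which the DNA is wound, had ratios much closer to the reference. The staged RNA is labelled mRNA and no intensities were used. Core histone spots with little signal in both channels can therefore not be told from the others. Of 49 measured core histone genes 0 were called higher and 1 lower, and 3 had an unadjusted p under 0.05, where 33.7% of all genes did. The mean log2 ratios ran from -0.89 for his-37 to 0.62 for his-15. Of the linker histone genes, 3 lay below that range and 2 above it, while hil-6 lay inside. Transcripts of 1 core histone class are nearly the same in sequence, and a spot may read several of them, so these 49 values are no independent measurements.

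By class, the core histone medians were not alike between preps. The median of 13 H2A genes was 0.28, -0.05 and -0.12 by prep, with his-57 highest at 0.44 ± 0.20 and his-16 lowest at -0.28 ± 0.23. For 12 H2B genes it was 0.19, 0.14 and -0.03, between his-15 at 0.62 ± 0.54 and his-4 at -0.24 ± 0.50. None of the H2A and H2B genes passed, and 0 H2A and 1 H2B gene had an unadjusted p under 0.05.

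The 11 H3 genes had medians of 0.20, -0.42 and -0.36, from his-32 at 0.27 ± 0.85 to his-42 at -0.43 ± 0.21. None passed, and 0 had an unadjusted p under 0.05. Among 13 H4 genes, with medians of 0.03, -0.40 and -0.70, his-67 was highest at 0.28 ± 0.32. The H4 gene his-37, at -0.63, -1.06 and -0.98, was lower at -0.89 ± 0.23 (limma adjusted p = 0.0245). That call was lost without prep 2 (-0.81) or prep 3 (-0.85) and with print blocks centred (-0.64).

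Of 8 histone variant genes, 1 was higher and 1 lower, where 11.3% and 9.37% of all genes were. Both belong to the H3.3 type, which is placed in chromatin outside DNA replication. So do his-69, his-72 and his-74 of this list, which were not called. The gene his-70 stood at 1.12, 1.33 and 1.00, a mean of 1.15 ± 0.17 (limma adjusted p = 0.00631). The gene his-71 stood at -0.94, -0.98 and -0.91, a mean of -0.94 ± 0.03 (limma adjusted p = 0.0167). Its call was lost without prep 1 (-0.95) or prep 2 (-0.92). The medians of this list were 0.51, -0.03 and -0.04 in preps 1, 2 and 3.

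Of 7 high mobility group (HMG) genes, whose products also bind DNA in chromatin, 1 was higher and 1 lower, where 11.3% and 9.37% of all genes were. The gene hmg-12 was higher at 1.95, 1.04 and 0.77, a mean of 1.26 ± 0.62 (limma adjusted p = 0.00898). Its call was lost without prep 1 (0.91) and with print blocks centred (1.00). The lowest was hmg-11 at -1.63, -1.80 and -1.84, a mean of -1.76 ± 0.11 (limma adjusted p = 0.000461). The other 5 did not pass, and the list's medians were -0.28, 0.01 and -0.34.

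None of the histone chaperones, or of the genes listed for heterochromatin and linker histone partners, passed. For 12 chaperone genes the medians were 0.94, 0.03 and 0.08, and 2 had an unadjusted p under 0.05, where 33.7% of all genes did. The ASF1-like gene asfl-1 was highest at 0.69 ± 0.27 and the RbAp-related gene rba-1 lowest at -0.23 ± 0.52. With print blocks centred, asfl-1 passed at 0.72. The 22 genes of a broad list for heterochromatin and linker histone partners, which include hpl-1 and sir-2.1, had medians of 0.67, 0.09 and -0.10. They ran from let-418, a Mi-2 type remodeller, at 0.79 ± 0.55 to its relative chd-3 at -0.62 ± 0.44. Of these 22 genes, 3 had an unadjusted p under 0.05, beside the same 33.7% of all genes. Without prep 3, 3 of these genes were called higher, let-418 among them at 1.103.

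Among 7 genes of sperm chromatin and small sperm proteins, 6 were higher and 0 lower, where 11.3% and 9.37% of all genes were. The medians were 2.91, 3.05 and 3.83. Whether spots of related genes in this list also read each other was not checked, so the calls may not be independent. The sperm chromatin gene spch-3 was highest at 3.74 ± 0.27 (limma adjusted p = 8.7e-06). Only spch-1 did not pass, at -0.41 ± 0.23. No linker histone gene came near the values of the 6 called members of this list, the lowest of which, gsp-4, stood at 3.12 ± 0.57.

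**Figure D3:**
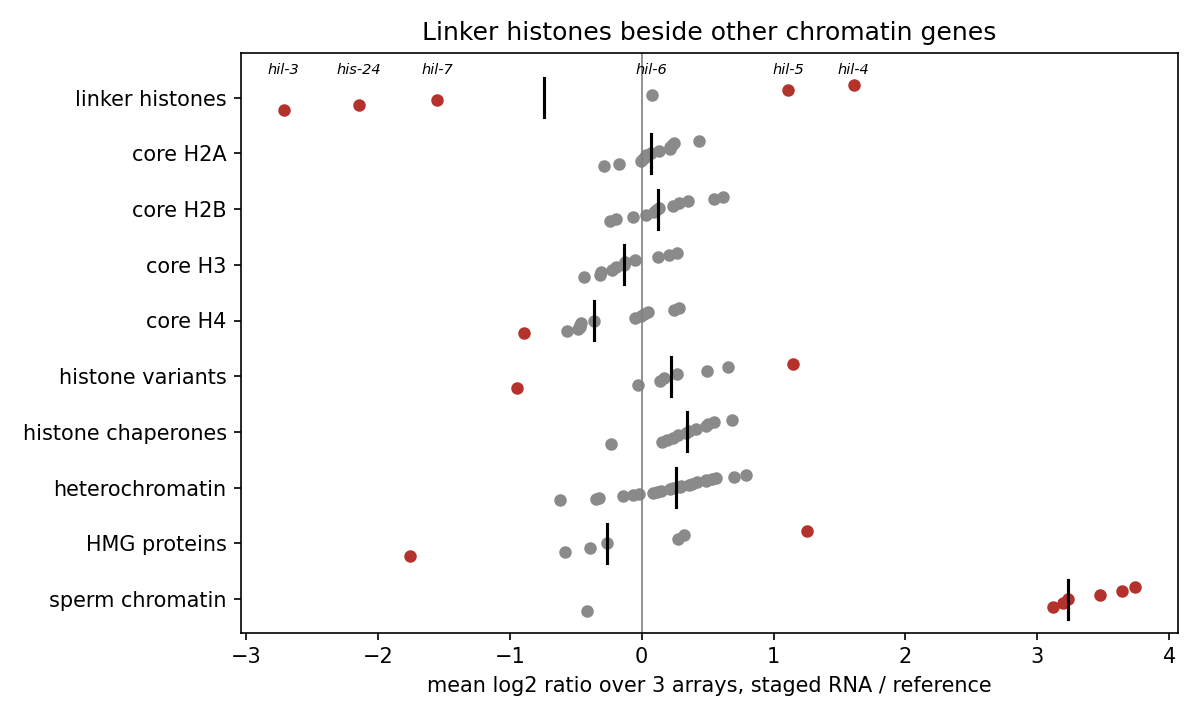
Mean log2 ratio over 3 arrays (horizontal axis) for the 6 linker histone genes and for 9 lists of chromatin genes. Each point is a gene, red where limma's adjusted p was under 0.05, and the black bar is the median of the gene means; the linker histone genes extend from -2.71 to 1.61 and the core histone genes from -0.89 to 0.62.

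Genes with the most similar values over the 3 arrays were taken by Euclidean distance among 9246 genes with a symbol. For his-24 they were the F-box gene fbxa-24 at a distance of 0.13, the C-type lectin gene clec-97 at 0.18 and the cytochrome P450 gene cyp-34A9 at 0.33. For hil-3 they were the peptidase gene dpf-6 at 0.17, the hedgehog-related gene grl-3 at 0.25 and the collagen gene col-123 at 0.39. For hil-4 they were the chaperone gene hsp-110 at 0.16, tfg-1 at 0.17 and the sideroflexin gene sfxn-1.1 at 0.17. Within a distance of 1 lay 71 genes of his-24, 29 of hil-3 and 273 of hil-4. With 3 arrays, a short distance says only that the ratios were close.

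**Figure D4:**
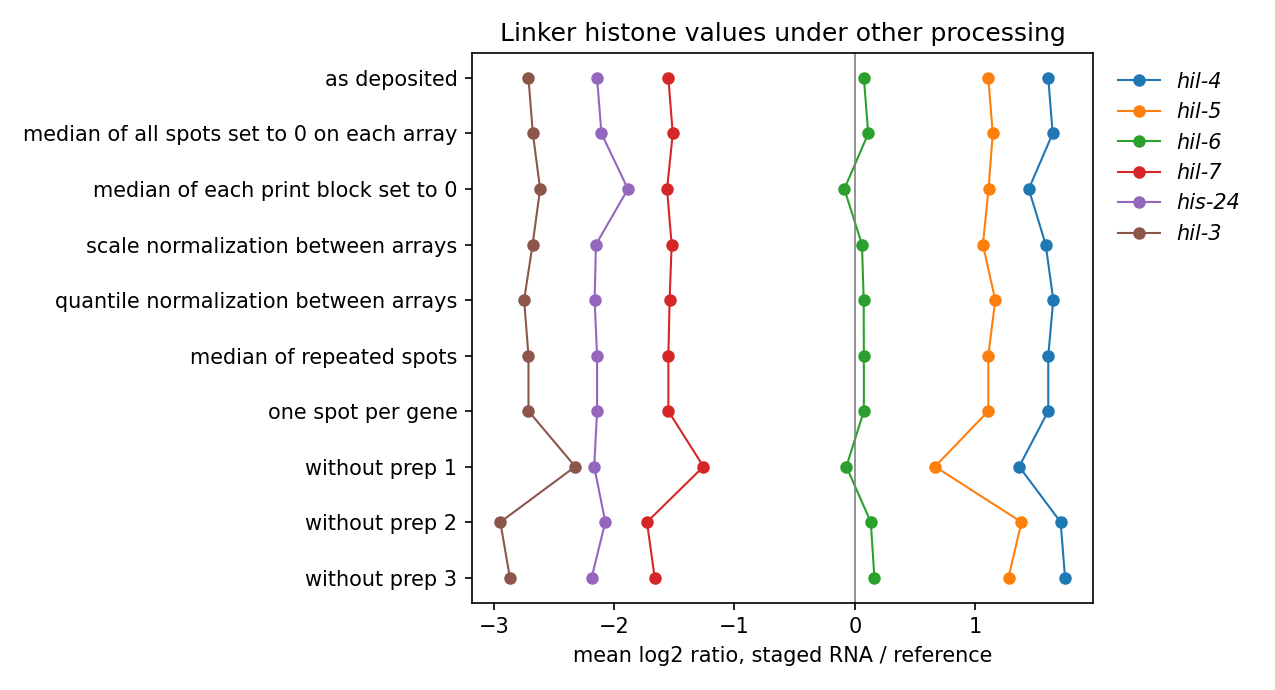
Mean log2 ratio (horizontal axis) of each linker histone gene with the values as deposited and under 9 alternatives, among them each prep left out. The order of the 6 genes is the same in every line, which had to be so for the 2 alternatives on repeated spots, since each gene has 1 spot, and hil-6 is the only one to cross 0.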

How the data were processed

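The authors deposited 1 log2 ratio per spot for 20000 spots on each of 3 arrays, and values were missing for 73, 175 and 127 spots in preps 1, 2 and 3. The log2 base was checked: for every ratio under 0.6, 2 raised to the value differed from a multiple of 0.001 by at most 0.01 of that step. How the images were read, corrected and normalized, and the dyes, is not given in the sources used here. No intensities were used, so dim spots stay in, and precision is limited by there being 3 arrays.

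Spots were named by the platform annotation, with symbols and chromosomes from a RefSeq gene table (WBcel235). Of the spots, 15655 had 1 gene, 198 several (left out) and 4147 none. Spots of a gene were averaged, and 15119 genes with 3 values were fitted with limma (version 3.58.1, R 4.3.3; lmFit, eBayes, mean against 0, two-sided, Benjamini-Hochberg, threshold 0.05). The reference's own spread is left out. The fit was tested on simulated data with independent normal noise of equal spread on all arrays. That simulation does not cover differences in scale or shared shifts between preps. Pairs of arrays correlated across genes with r of 0.65 to 0.68.

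Members, gene lists and alternatives were chosen with earlier results of these data known. The rule named all members and other hil genes, the highest, lowest and (where at most 5) called genes of each chromatin list, and the 3 nearest genes of his-24, hil-3 and hil-4. Neighbours on the chromosome were added after the values were seen, as were gsp-4 and rol-6.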

Additional observations from a re-analysis of the deposited data

How the results depend on the processing

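No source states which way the ratio runs. With the sign turned, his-24 would stand at 2.14, hil-3 at 2.71, hil-7 at 1.55, hil-4 at -1.61 and hil-5 at -1.11. The order of the 6 members was the same under the 8 other alternatives that change a value of theirs. Among the alternatives that kept all arrays, only 1 moved a member by more than its SD: his-24 was at -1.89 with print blocks centred. Leaving out each prep in turn gave -2.19 to -2.07 for his-24, -2.95 to -2.32 for hil-3, -1.73 to -1.26 for hil-7, -0.07 to 0.16 for hil-6, 0.67 to 1.39 for hil-5 and 1.37 to 1.75 for hil-4. The 3126 calls over all genes, 1709 higher and 1417 lower, ran from 1759 to 2904 with a prep left out, 1095 to 1598 higher and 664 to 1306 lower. At an adjusted p of 0.01 there were 1605 calls, 952 higher and 653 lower, and 1 linker histone gene was called higher in place of 2. With a prep left out, 1 to 2 linker histone genes were called higher and 3 lower. Of core histone genes 0 were called with print blocks centred or at an adjusted p of 0.01, and 0 to 1 with a prep left out. Of 312 counts of calls in the other lists under the alternatives, 276 were equal to the reported count, 26 were smaller and 10 larger. Of 234 values of the named chromatin genes, 223 stayed on their side of the threshold, 9 lost the call and 2 gained it. Of 171 list medians and values of hil-1 and hil-8, 2 moved beyond their spread. No paired analysis was possible because there is only 1 group. Dim spots could not be told from bright ones, which limits what single values can show.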
